A study of Mus musculus with 6 samples.

Results

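Fenestrated endothelial cells of the mouse posterior eye were taken as the endothelial cells that carried transcripts of Plvap, which encodes the protein of the diaphragms that span fenestrae and caveolae. Of 66434 barcodes in 6 libraries, 55353 had at least 1000 unique molecular identifiers (UMIs, each counting 1 captured RNA molecule), at least 500 genes and at most 20% of UMIs from mitochondrial genes. Of these, 546 barcodes had at least 3 of the 7 endothelial genes Pecam1, Cdh5, Cldn5, Flt1, Kdr, Egfl7 and Emcn detected, at least 1 Plvap UMI and at most 3 UMIs of Dcn, a fibroblast proteoglycan. The 754 barcodes that met the same conditions with 0 Plvap UMIs are called Plvap-negative endothelial cells and served for comparison. The members were thus chosen by their measured UMIs of Plvap, the 7 endothelial genes and Dcn, and the values of these genes in the members are given as a description only.

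The series profiled single cells of the posterior eye cup, which holds the sclera, choroid and retina, after removal of the lens, cornea, iris and ciliary body. Each group had 12 mice, only right eyes were used, and 4 eyes were pooled per library, so each group has 3 pools and the pool is the replicate. One group received tropicamide eye drops, a muscarinic receptor antagonist that dilates the pupil and relaxes the ciliary muscle, at intervals of 10 minutes for 6 applications, with 1 h of waiting afterwards. Saline drops were given to the control group at that interval too, without a stated number of drops or waiting time, and its ciliary muscle is labelled as contracted. No strain, age or sex is stated for the mice.

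The choroid and the retina have contrasting capillaries. The choriocapillaris, a sheet of wide capillaries under the retinal pigment epithelium, is fenestrated, and vascular endothelial growth factor from that epithelium maintains it. Retinal capillaries have a tight barrier instead, set up by Wnt signalling and carried by glucose, amino acid and lipid transporters, and they normally lack Plvap. Vascular muscarinic receptors are of interest here because the drug used blocks them: the M3 receptor (Chrm3) signals through calcium and in endothelium can release nitric oxide, and the M2 receptor (Chrm2) lowers cyclic AMP.

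The libraries held 30761887 to 49477707 UMIs each and kept 7452 to 11724 barcodes. The Plvap-positive cells had a median of 7332 UMIs, against 5532 in the Plvap-negative cells. Their summed counts per pool ran from 114630 UMIs (14 cells, saline pool 2) to 1718388 UMIs (176 cells, tropicamide pool 1), so the small saline pools set the precision. No member barcode was shared by 2 libraries. An estimate from simulated doublets marked 14.8% of the Plvap-positive and 16.4% of the Plvap-negative cells, and these cells were kept.

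All 7 endothelial genes were detected in 395 of the 546 cells, and 16 cells sat at the lower edge with 3. Over the 6 pools, Plvap was 2537 ± 521 CPM (SD, n = 6), where CPM is the UMIs of a gene per 1e6 summed UMIs of the pool. Kdr, the main receptor for vascular endothelial growth factor, was 1366 ± 410 CPM against 284 ± 83.7 CPM in Plvap-negative cells, and Emcn, a sialomucin of capillaries and veins, was 1806 ± 226 CPM against 398 ± 32.3 CPM. Flt1, a decoy receptor for the same growth factor, was 3988 ± 333 CPM against 5480 ± 653 CPM, and the tight junction gene Cldn5 was 1902 ± 153 CPM against 2782 ± 205 CPM. Pecam1 was 702 ± 183 CPM in Plvap-positive cells and 662 ± 34.9 CPM in Plvap-negative cells. The rule used these genes, so they are no independent check of the endothelial label.

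At the edges of the rule, 48 cells had a single Plvap UMI and 36 had 2, whereas 331 had 10 or more and the highest had 223. Just outside it lay 23 cells with 2 of the 7 endothelial genes and 79 cells with Dcn above 3 UMIs, whose median was 19 Dcn UMIs and 20594 UMIs in all. Free RNA was gauged in rods, which should lack Plvap. Rods were barcodes with at least 1% of UMIs from rod markers and none of the 7 endothelial genes detected. Of these, 0.594% to 1.91% carried at least 1 Plvap UMI, at median depths of 2270 to 2568 UMIs per rod. Leaving out barcodes with endothelial genes can lower such shares, so free endothelial RNA may be more common. How many members with 1 Plvap UMI carry it as free RNA was not tested, and calls were repeated with at least 2 and at least 5 UMIs.

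The cells were unevenly spread over the pools. Tropicamide pools 1 to 3 gave 176, 169 and 40 Plvap-positive cells, and saline pools 1 to 3 gave 25, 14 and 122. Of all endothelial cells, 55.2%, 48.3% and 25.2% carried Plvap with tropicamide and 23.4%, 23.3% and 40.0% with saline. The groups overlapped: tropicamide pool 3 lay beside saline pools 1 and 2, and saline pool 3 lay between tropicamide pools 2 and 3. The mean share was 42.9% ± 15.7 (SD, n = 3) with tropicamide and 28.9% ± 9.61 (SD, n = 3) with saline, a logit difference of 0.611 which had p = 0.2 by exact permutation (two-sided, 20 arrangements, smallest possible p 0.1). As a share of all kept cells they made up 2.20%, 1.44% and 0.385% with tropicamide and 0.335%, 0.163% and 1.32% with saline (exact permutation p = 0.2). The logit difference of 0.95 went to 0.459 without barcodes of at least 1% rod-marker UMIs. These were left out of both the members and the denominator.

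**Figure D1:**
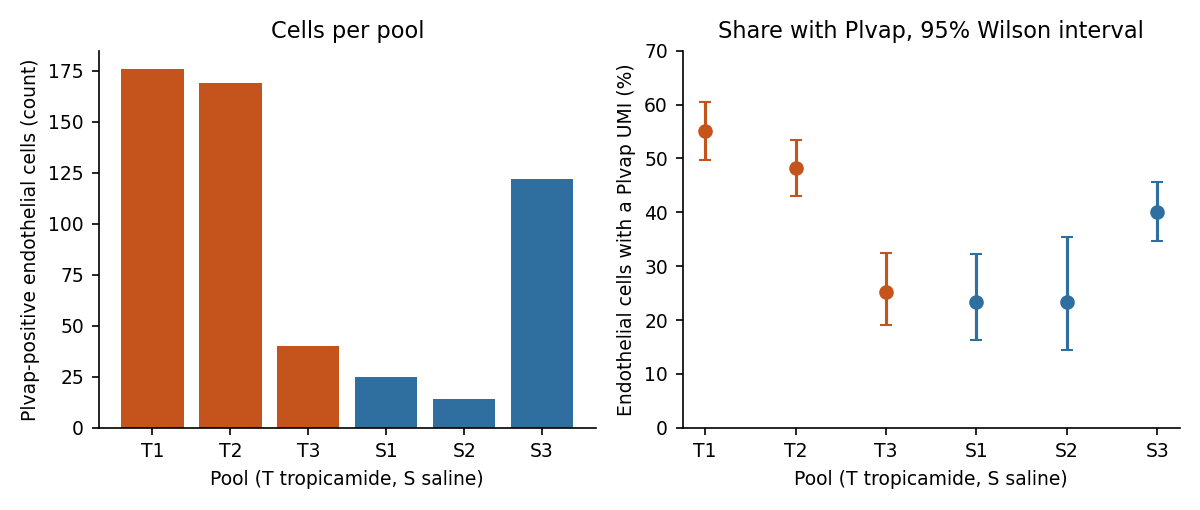
Left, number of Plvap-positive endothelial cells in each pool (T tropicamide, S saline); right, share of endothelial cells with at least 1 Plvap UMI in percent, with 95% Wilson intervals that cover counting error only. The shares run from 25.2% to 55.2% in the tropicamide pools and from 23.3% to 40.0% in the saline pools, so the groups overlap.

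The level of Plvap itself, taken over all endothelial cells without selecting on Plvap, was 1713, 1200 and 637 CPM with tropicamide and 666, 864 and 1117 CPM with saline. The log2 fold change of Plvap was 0.42 ± 0.30 (SE), with adjusted p = 0.717 by edgeR's quasi-likelihood test. It dropped to 0.067 without tropicamide pool 1 and went to 0.72 without tropicamide pool 3, so no difference in Plvap level was detectable with these pools.

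Clustering the members alone gave 5 groups, referred to by number and described by their leading genes without a test, since the clusters were built from the same genes. Cluster 1 (200 cells) was led by Vwf, the carrier of clotting factor VIII, with Tmem252, Mal, Lrg1 and Slc2a1, and held 1538 CPM of Plvap. Cluster 2 (169 cells) was led by Hilpda, Ednrb and Tbxa2r and held 4384 CPM of Plvap, 2491 CPM of Kdr and 13750 CPM of Timp3, an inhibitor of matrix proteases that is deposited in Bruch's membrane beneath the pigment epithelium. Vwf was 784 CPM in cluster 1 and 48.3 CPM in cluster 2, and Car8 was 230 CPM and 856 CPM.

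The other clusters carried transcripts of neighbouring cells. Cluster 3 (90 cells, median 3648 UMIs) was led by Ttr, Ptgds and rod genes, although Ttr was detected in 32.2% of its cells and 46.9% of the other members. Of the 408 Ttr UMIs in members of tropicamide pool 3, 367 lay in 1 cell. Cluster 4 (55 cells) was led by Cadm2 and Pcdh15 with a median of 118 rod-marker UMIs per cell and 50.9% of cells marked as doublets, and cluster 5 (32 cells) by Spp1 and the pericyte genes Rgs5 and Pdgfrb. Cluster 2 made up 34.7%, 27.8% and 10.0% of members with tropicamide and 36.0%, 42.9% and 34.4% with saline, with 4 cells in tropicamide pool 3 and 6 in saline pool 2.

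**Figure D2:**
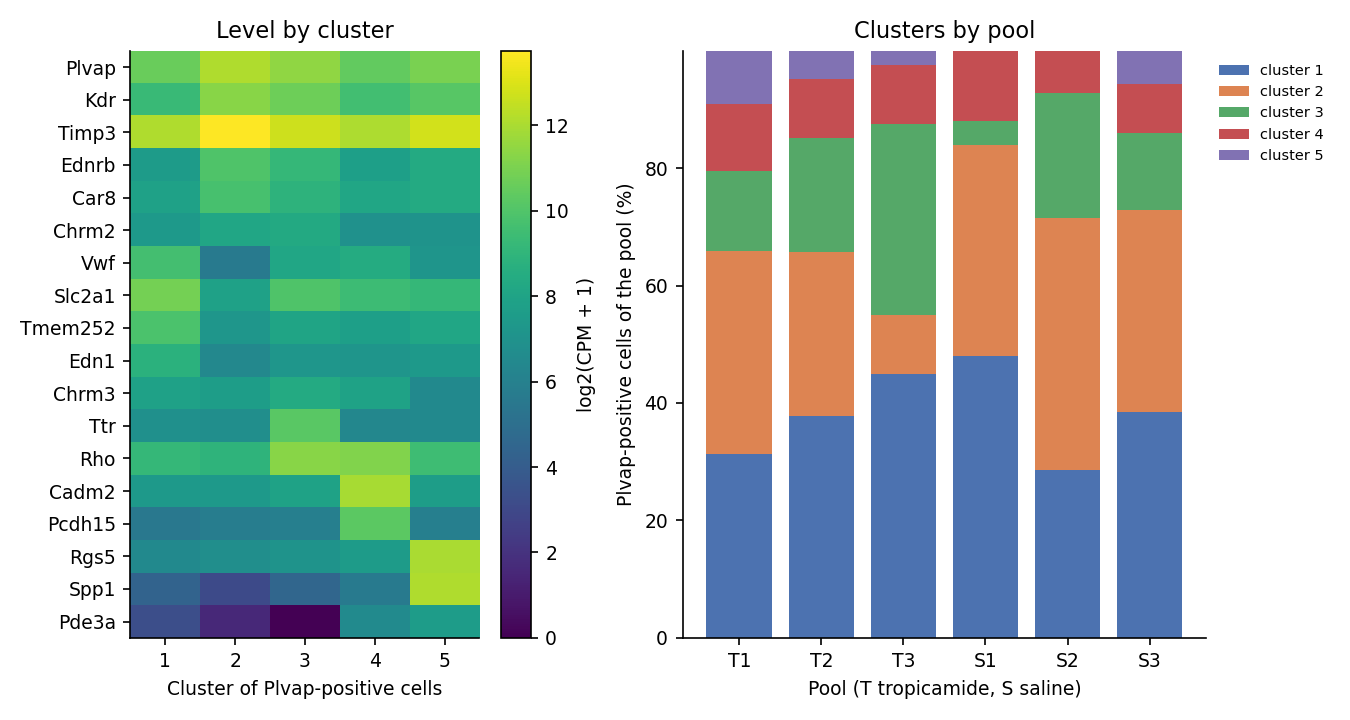
Left, level of named genes in the 5 clusters of Plvap-positive cells as log2(CPM + 1) of the summed UMIs; right, share of each cluster in percent of the Plvap-positive cells of each pool (T tropicamide, S saline). Plvap, Kdr, Timp3, Ednrb and Car8 are highest in cluster 2, Vwf, Slc2a1 and Edn1 in cluster 1, Rgs5 and Spp1 in cluster 5.

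Against the Plvap-negative cells of the same eyes, the Plvap-positive cells had another program of receptors, transporters and matrix genes. Counts were summed per pool and class, and edgeR's quasi-likelihood test was run with the pool as a term, leaving out the genes of the rule. Of 10943 genes tested, 3048 (27.9%) passed an adjusted p of 0.05, 1446 higher (13.2%) and 1602 lower (14.6%) in Plvap-positive cells. Beyond 2-fold, 513 were higher (4.69%) and 875 lower (8%). DESeq2 called 2431 genes (22.2%), and drawing cells matched on UMIs called 2746 genes by edgeR.

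The muscarinic receptors Chrm2 (ENSMUSG00000045613) and Chrm3 (ENSMUSG00000046159) were both higher in Plvap-positive cells. Chrm2 was 292, 163 and 221 CPM with tropicamide and 166, 183 and 139 CPM with saline, against 17.3, 13.3, 13.9, 3.4, 5.9 and 2.6 CPM in the Plvap-negative cells of the same pools. No pool of either class overlapped the other class, and the log2 fold change of Chrm2 was 4.34 ± 0.22 (SE; adjusted p = 2.1e-08). Chrm3 was 173, 212 and 251 CPM with tropicamide and 291, 358 and 239 CPM with saline, against a mean of 48.8 ± 32.0 CPM in Plvap-negative cells (SD, n = 6). The log2 fold change of Chrm3 was 2.47 ± 0.27 (adjusted p = 1.6e-05), with every Plvap-positive pool above every Plvap-negative one.

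At the level of cells, 305 of the 546 (55.9%) had a Chrm2 UMI, 290 (53.1%) had a Chrm3 UMI, 177 (32.4%) had both and 128 (23.4%) had neither. With each cell thinned to 2000 UMIs, Chrm2 was detected in 29.1% of 519 Plvap-positive cells and 1.49% of 672 Plvap-negative cells, and Chrm3 in 26.8% and 7.74%. The thinning left out 27 Plvap-positive and 82 Plvap-negative cells that were too shallow, and without it the Plvap-negative shares were 3.85% for Chrm2 and 11.7% for Chrm3. Rods, as a measure of free RNA, had a Chrm2 UMI in 0% to 0.117% and a Chrm3 UMI in 0.173% to 0.488% of cells. As a description of the clusters, Chrm2 was detected in 75.7% of cluster 2 and 45.0% of cluster 1, and Chrm3 in 45.0% and 61.0%. Chrm1 gave 8 UMIs in 8 cells. Chrm4 and Chrm5 gave 0 UMIs in 546 cells, which allows a share of cells with a UMI of up to 0.549% and a level of up to 0.579 CPM (counting error only).

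Other receptors for vasoactive peptides and lipids went with them. Ednrb, the endothelin B receptor, was 535, 451 and 212 CPM with tropicamide and 485, 829 and 483 CPM with saline, against 24 ± 18.2 CPM (SD, n = 6) in Plvap-negative cells, a log2 fold change of 4.20 ± 0.37 (adjusted p = 2e-06). Ramp3, which turns the calcitonin receptor-like receptor into an adrenomedullin receptor, was 362 ± 80.0 CPM against 22.6 ± 8.2 CPM (log2 fold change 4.03), while its partner receptor Calcrl was 154 ± 24.2 CPM against 88.0 ± 38.1 CPM (0.99). Ptgs1, the constitutive cyclooxygenase, was 182 ± 5.9 CPM against 10.3 ± 4.1 CPM (4.13), Npr3, the clearance receptor for natriuretic peptides, was 81.6 ± 15.3 CPM against 5.7 ± 2.6 CPM (3.80), and Ace, angiotensin-converting enzyme, was 68.4 ± 24.4 CPM against 19.8 ± 7.8 CPM (1.82). The nitric oxide synthase gene Nos3, at 218 ± 41.3 CPM against 208 ± 31.5 CPM, did not pass (log2 fold change 0.08 ± 0.11), nor did Edn1, which encodes endothelin (0.14 ± 0.14). In the list of vasoactive and muscarinic genes, 13 of 21 tested members were higher and 2 lower, Adm and Trpv4. Over all genes, 13.2% were higher and 14.6% lower. The list had a median log2 fold change of 0.79 beside −0.037 over all genes.

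**Figure D3:**
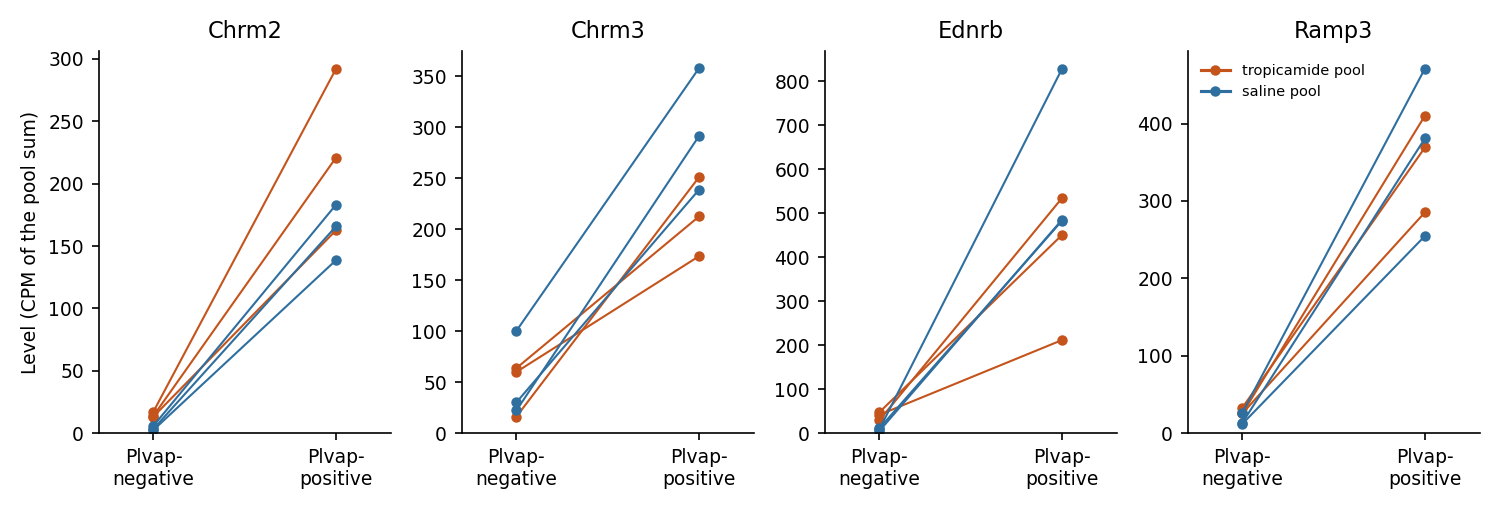
Level of 4 receptor genes in CPM of the pool sum in Plvap-negative and Plvap-positive cells, with a line joining the 2 classes of each pool. In every pool the Plvap-positive value is the higher, for example 139 to 292 CPM of Chrm2 against 2.6 to 17.3 CPM.

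Summed over all Plvap-positive cells, the genes of the blood-retina and blood-brain barrier were lower. Of 27 tested members of the barrier list, 26 were lower and 1, the transcription cofactor Lmo2, was higher (log2 fold change 1.14), with a list median of −2.10. Over all genes, 14.6% were lower and 13.2% higher. Slc2a1, the glucose transporter GLUT1, was 950 ± 437 CPM against 2883 ± 464 CPM (SD, n = 6; log2 fold change −1.62 ± 0.18). Mfsd2a, a lipid transporter that restrains transcytosis, was 11.6 ± 9.9 CPM against 194 ± 39.1 CPM (−3.57), and Slco1c1, a thyroid hormone transporter, was 10.7 ± 10.1 CPM against 367 ± 109 CPM (−4.79). The lactate transporter gene Slc16a1 had a log2 fold change of −4.50 ± 0.21 and the amino acid transporter gene Slc7a5 one of −3.20 ± 0.22. Lef1 and Apcdd1, both driven by Wnt signalling, had log2 fold changes of −1.72 and −4.24. The members were not uniform. By cluster, without a test, Slc2a1 was 1911 CPM in cluster 1 and 229 CPM in cluster 2, and Mfsd2a was 28.9 and 0 CPM. Itm2a, another barrier marker, went the other way, at 266 CPM in cluster 1 and 385 CPM in cluster 2.

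The list of choriocapillaris markers was mixed. Of 15 tested members, 8 were higher and 4 lower, beside 13.2% and 14.6% of all genes, with a median of 1.36. Plpp1 and Plpp3, lipid phosphate phosphatases, were 1678 ± 260 CPM against 152 ± 25.7 CPM and 1163 ± 302 CPM against 123 ± 16.9 CPM (log2 fold changes 3.51 and 3.23). Igfbp3, a binding protein of insulin-like growth factors, was 1764 ± 217 CPM against 241 ± 87.1 CPM (2.97), Esm1, a proteoglycan of tip cells and growing capillaries, was 120 ± 40.3 CPM against 4.8 ± 7.1 CPM (5.05), and Rgcc, a cell cycle regulator, was 1601 ± 410 CPM against 625 ± 189 CPM (1.40). The 4 lower members were Car4 (−1.10), Vwa1 (−1.82), Cd36 (−1.69) and Sema3c (−1.60). Car4, a carbonic anhydrase often used to mark the choriocapillaris, was 18.4 ± 12.3 CPM against 46.3 ± 22.3 CPM.

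The machinery of caveolae was less uniform than the barrier list. Of 14 tested genes, 7 were higher and 2 lower (Pacsin3 and Nostrin), beside 13.2% and 14.6% of all genes, with a median of 0.42. Ehd4, a membrane-shaping ATPase, was 909 ± 90.2 CPM against 156 ± 30.2 CPM (log2 fold change 2.57), and Cavin3 was 266 ± 33.3 CPM against 124 ± 24.9 CPM (1.16). Cav1, the main coat protein of caveolae, was 306 ± 73.2 CPM against 184 ± 55.3 CPM (0.76), whereas its coat partner Cavin1 did not pass (0.13 ± 0.11).

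Venous and leukocyte-adhesion genes were higher in part. In the vein list 7 of 14 tested members were higher and 2 lower, Nr2f2 and Tshz2. In the list of leukocyte recruitment 5 of 13 were higher and 0 lower. Over all genes, 13.2% were higher and 14.6% lower. Vcam1, an adhesion receptor in both lists, did not pass, at 65.9 ± 66.8 CPM against 96.1 ± 64.0 CPM (log2 fold change −0.52 ± 0.24). Icam1, an adhesion receptor for leukocytes, was 727 ± 218 CPM against 347 ± 189 CPM (log2 fold change 1.3), and Selp, which encodes P-selectin, was 94.6 ± 74.0 CPM against 6.8 ± 8.8 CPM (3.73). Selp was 0 CPM in cluster 2, and it was detected in 16% of cluster 1. The artery list went the other way, with 5 of 19 tested members higher and 9 lower and a median of −0.46: Cxcl12, a chemokine, was 422 ± 65.2 CPM against 1142 ± 176 CPM (−1.37), but Mgp, a matrix inhibitor of calcification, was 2568 ± 606 CPM against 1470 ± 417 CPM (0.85).

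Growth factor receptors and matrix genes differed in both directions. Of 27 tested receptors and targets of the VEGF, Tie, Notch and BMP pathways, 14 were higher and 5 lower. Eng, a co-receptor of BMP9, was 1393 ± 68.0 CPM against 512 ± 48.5 CPM (log2 fold change 1.48), Nrp1, a co-receptor of Kdr, was 712 ± 83.9 CPM against 175 ± 25.4 CPM (2.04), and Tie1 was 427 ± 85.4 CPM against 156 ± 23.7 CPM (1.47). In the basement membrane list 12 of 25 were higher and 7 lower. The shares over all genes were 13.2% and 14.6%. Col15a1 (2.21), Nid2 (1.63) and the perlecan gene Hspg2 (1.49) were higher, and the fibronectin gene Fn1 was lower, at 92.3 ± 29.2 CPM against 838 ± 138 CPM (−3.16).

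Among secreted factors that could reach the pigment epithelium and sclera, 8 of 24 were higher and 6 lower. The shares over all genes were 13.2% and 14.6%. Timp3 was 7977, 7847 and 5183 CPM with tropicamide and 7551, 11437 and 7241 CPM with saline, against 1765 ± 495 CPM in Plvap-negative cells (log2 fold change 2.20 ± 0.13; adjusted p = 7.8e-08). Bmp6 was 69.3 ± 26.4 CPM against 4.8 ± 4.8 CPM (3.63) and Tgfb1 was 229 ± 35.9 CPM against 98.7 ± 19.7 CPM (1.22), while Tgfb2 (−0.98) and the pleiotrophin gene Ptn (−1.54) were lower. Of 17 tested hypoxia and glycolysis genes 0 were higher and 7 lower. Aqp1, a water channel, was 947 ± 324 CPM against 263 ± 90.3 CPM (1.94).

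**Figure D4:**
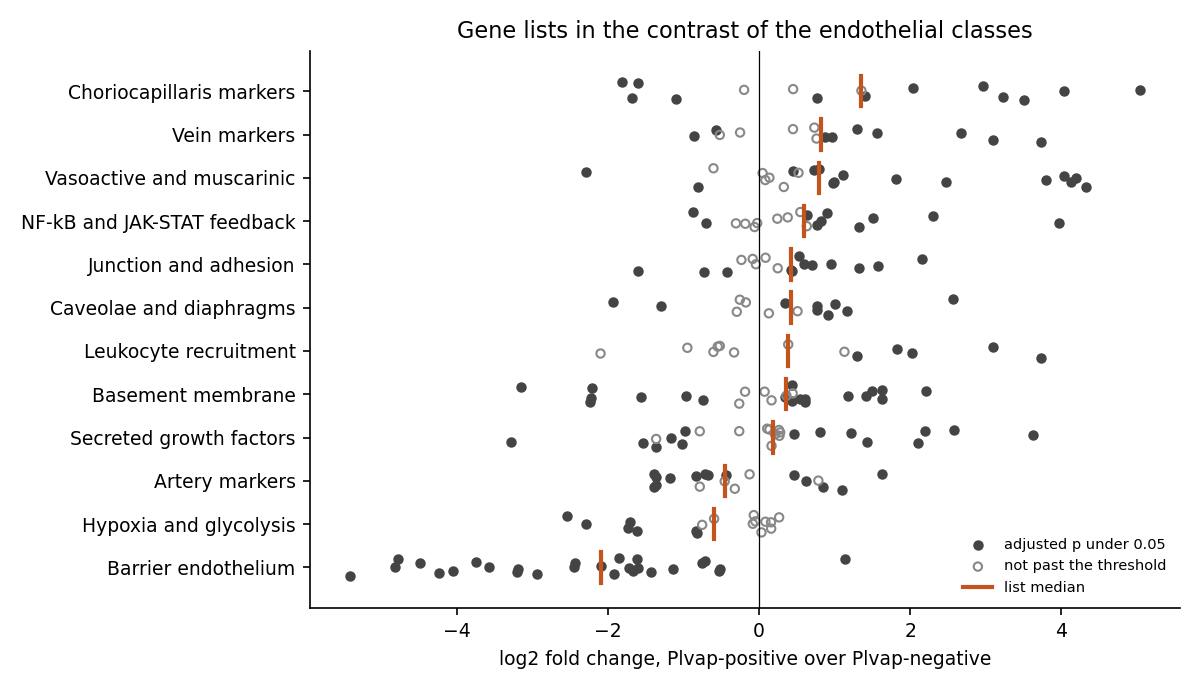
Log2 fold change of each tested gene of 12 lists, Plvap-positive over Plvap-negative cells; filled points passed an adjusted p of 0.05 by edgeR, open points did not, and the vertical bars are list medians. The barrier list lies below 0 except Lmo2 (median −2.10), and the choriocapillaris, vein and vasoactive lists have medians of 1.36, 0.82 and 0.79.

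By size alone, the genes highest in Plvap-positive over Plvap-negative cells at a mean of at least 50 CPM were Dlk1, Car8, Exoc3l2, Col13a1, Fam167b, Esm1, Cyp26b1, Ripply3, Ltc4s and Chrm2. Car8, which binds the IP3 receptor, was 474 ± 135 CPM against 9.3 ± 9.0 CPM (log2 fold change 5.65 ± 0.27). Cyp26b1, which breaks down retinoic acid, was 129, 181 and 66.7 CPM with tropicamide and 182, 454 and 118 CPM with saline, against 5.3 ± 0.8 CPM (4.91 ± 0.21). Exoc3l2 was 287 ± 48.1 CPM against 5.9 ± 3.1 CPM (5.42), and Ltc4s, which makes leukotriene C4, was 194 ± 32.8 CPM against 9.4 ± 2.5 CPM (4.35). Dlk1 rested on few cells: its UMIs lay in 9, 3 and 1 cells of the tropicamide pools and 0, 1 and 1 of the saline pools, with 0 UMIs in Plvap-negative cells.

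The genes lowest by size were the hemoglobin genes Hba-a2, Hba-a1, Hbb-bt and Hbb-bs, followed by Sorcs1, Ccdc141, Slco1c1, Atp10a, Slc16a1 and Rgs6. The hemoglobin values came from a few Plvap-negative barcodes: in saline pool 1, for example, 5450 of 5455 Hbb-bs UMIs lay in 1 cell. Markers of other cells also differed between the classes: the 7 lymphatic markers summed to 356 to 5551 CPM in Plvap-negative and 227 to 585 CPM in Plvap-positive pools, and the 7 Müller glia markers to 1543 to 4017 CPM and 918 to 1849 CPM. Their part in the differences was not tested.

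In the comparison the study was designed for, tropicamide against saline within the Plvap-positive cells, 1 of 8516 genes tested passed (0.0117%), higher with tropicamide, and 0 passed as lower. At an unadjusted p under 0.05 there were 451 genes (5.3%), 236 higher (2.77%) and 215 lower (2.52%), and DESeq2 called 2 genes (0.0235%), Pde3a and Penk. Simulated 2-fold and 4-fold changes in these pools were recovered for 62.1% and 98.9% of genes, so changes of about 2-fold could be missed. The simulation gave genes of like level the same spread and changed many genes at once. Recovery in the real counts can be lower, so larger changes could be missed too.

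The gene that passed was Pde3a (ENSMUSG00000041741), a phosphodiesterase that breaks down cyclic AMP. It was 50.6, 50.3 and 64.4 CPM with tropicamide and 8.1, 0 and 8.0 CPM with saline, without overlap (log2 fold change 2.83 ± 0.38, adjusted p = 0.0281). Its UMIs lay in 17, 8 and 4 cells of the tropicamide pools and in 1, 0 and 5 of the saline pools. Pde3a was detected in 71.9% of cluster 5, the cells with pericyte transcripts, and in 2.5% and 1.78% of clusters 1 and 2, and cluster 5 supplied 16, 8 and 1 cells to the tropicamide pools and 0, 0 and 7 to the saline pools. Summed pericyte and smooth muscle markers were 589 to 1386 CPM with tropicamide and 96.0 to 901 CPM with saline. Pde3a no longer passed without marked doublets (adjusted p = 0.421), with at least 2 Plvap UMIs (0.266) or with the replicate number as a term (0.0525). It also did not pass without tropicamide pool 2 (0.195) or without saline pool 1 (0.146), 2 (0.0625) or 3 (0.176). Without clusters 4 and 5 it was under the filter on low counts. Over all its alternatives the adjusted p of Pde3a ran from 6.4e-09, with no filter on low counts, to 0.421.

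Most targets of the glucocorticoid receptor had higher values with tropicamide, and none passed. With no filter on low counts 5 of 24 did, among 105 genes called in all, at a list median of 0.49 beside 0.097 over all genes. Of 18 tested members of the list, 16 had a log2 fold change above 0 (49.9% of all genes), 8 had an unadjusted p under 0.05 and were higher (2.77% of all genes), and 7 did not overlap between the groups and were higher (7.59% of all genes). The list median was 0.39 beside −0.00063 over all genes. Such a shift was not particular to this list. With DESeq2's size factors in edgeR, 11 of 14 genes of lipid and nutrient uptake were above 0, with a median of 0.30 and 0 passing. Without marked doublets that list's median was 0.44, beside 0.41 for the glucocorticoid list. Both lists were chosen with earlier results of these libraries known, so these counts are not independent evidence of their direction.

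Fkbp5 (ENSMUSG00000024222), a co-chaperone that is induced by the receptor and damps it, was 208, 229 and 239 CPM with tropicamide and 109, 61.1 and 119 CPM with saline. The Fkbp5 pools of the groups did not overlap, and the log2 fold change was 1.03 ± 0.18 (unadjusted p = 7.1e-05, adjusted p = 0.202 by edgeR). Over its alternatives the adjusted p of Fkbp5 ran from 1.9e-05, with no filter on low counts, to 0.880, without tropicamide pool 2. In rods Fkbp5 was 62.4 to 83.1 CPM, with a UMI in 13.3% to 16.1% of cells, and saline pool 2 lay just below that range. Zbtb16, a transcription factor, was 177, 157 and 186 CPM with tropicamide and 72.8, 17.4 and 91.0 CPM with saline (1.14 ± 0.24, adjusted p = 0.396).

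Tsc22d3, the anti-inflammatory factor GILZ, was 298, 323 and 350 CPM against 194, 183 and 248 CPM (log2 fold change 0.53, adjusted p = 0.793), and the kinase gene Sgk1 was 1703, 1636 and 1478 CPM against 1209, 1152 and 1210 CPM (0.41, adjusted p = 0.761). Per1, Mt1 and Mt2 were the other members whose groups did not overlap, with log2 fold changes of 0.47, 0.95 and 1.15. The members given values here are thus only those that were higher without overlap. The leading members Dusp1, Klf9 and Cdkn1a were not among them. The receptor gene itself, Nr3c1, was 188 ± 13.8 CPM with tropicamide and 173 ± 54.1 CPM with saline (SD, n = 3), and the groups overlapped. Summed markers of the pigment epithelium were 292, 414 and 1959 CPM with tropicamide, the last with 367 of its 408 Ttr UMIs in 1 cell, and 52.3 to 268 CPM with saline, and their part in these values was not tested. Without tropicamide pool 3, which held the most, the glucocorticoid list's median was 0.27 with 17 of 18 members above 0.

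**Figure D5:**
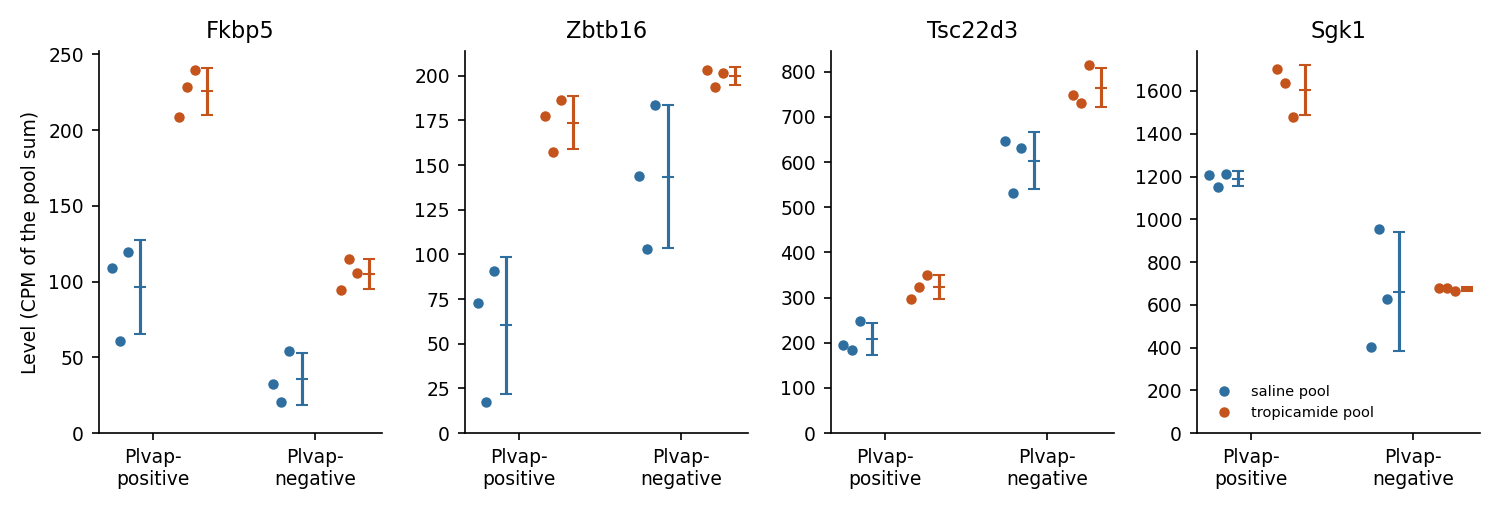
Level of 4 glucocorticoid receptor targets in CPM of the pool sum, in Plvap-positive and Plvap-negative cells; points are pools, and the bars beside them are the mean ± SD of 3 pools. In Plvap-positive cells the tropicamide pools lie above the saline pools for all 4 genes, but none passed an adjusted p of 0.05. The 4 are among the list members whose pools do not overlap and are higher with tropicamide, as 7.59% of all genes are. The other list members are not shown.

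In the list of VEGF, Tie, Notch and BMP pathway genes 0 of 28 tested members passed, and the list median was 0.0091. Smad7, an inhibitory SMAD, was 399, 486 and 453 CPM against 263, 305 and 293 CPM (log2 fold change 0.62 ± 0.15, adjusted p = 0.583). Id3, a target of BMP signalling, was 1089, 1251 and 1459 CPM against 797, 663 and 917 CPM (0.62 ± 0.15, adjusted p = 0.584). At an unadjusted p under 0.05, 6 of the 28 had higher values (2.77% of all genes) and 1, Nrp2, had lower values (2.52% of all genes). Beside Smad7 and Id3, the higher ones were Id1, Id2, Smad6 and Spry4.

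Genes of matrix and choriocapillaris did not pass. Col4a1 was 767, 835 and 842 CPM with tropicamide and 497, 637 and 661 CPM with saline (log2 fold change 0.42 ± 0.14, adjusted p = 0.843). In the basement membrane list 12 of 23 tested members had a log2 fold change above 0 (49.9% of all genes), and the list median was 0.040. Higher values without overlap were found for 5 of the 23 (7.59% of all genes), Col4a1, Col4a2, Col15a1, Sparc and Igfbp7. Esm1 was 151, 146 and 166 CPM against 69, 79 and 112 CPM (0.64 ± 0.19, adjusted p = 0.793). Car8 and Ripply3, among the genes with the largest class difference, had lower values with tropicamide without overlap, as 4.96% of all genes did (−0.50 ± 0.20 and −0.58 ± 0.18, adjusted p = 0.92 and 0.833).

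The muscarinic receptors did not pass in either direction. The log2 fold change of Chrm2 was 0.53 ± 0.23 and that of Chrm3 was −0.44 ± 0.19 (adjusted p = 0.92 each), and for both genes the pools of the groups overlapped. Ednrb (−0.50 ± 0.27), Timp3 (−0.33 ± 0.18) and Slc2a1 (0.79 ± 0.27) likewise had overlapping pools. Selp was 106, 34.0 and 85.2 CPM with tropicamide and 133, 0 and 209 CPM with saline, a spread within saline wider than the difference between the groups.

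The other genes of smallest p were Penk, Hbb-bs, Pcdh17, Agfg2, Mir124a-1hg and Kalrn. Penk, which encodes proenkephalin, had 66, 154 and 10 UMIs with tropicamide and 0, 0 and 2 with saline (log2 fold change 5.31, adjusted p = 0.166), of which 62 and 77 in tropicamide pools 1 and 2 lay in 1 cell each. Hbb-bs was 29.6 ± 15.8 CPM against 1.9 ± 2.0 CPM (3.79), spread over 24, 60 and 9 cells with tropicamide and 1, 0 and 2 with saline, and the summed red cell markers were 26.2 to 85.6 CPM and 1.77 to 12.1 CPM. Pcdh17, a protocadherin, was 51.0 ± 10.3 CPM with tropicamide and 99.6 ± 27.2 CPM with saline (−1.07 ± 0.22, adjusted p = 0.396). Agfg2 (1.72), Mir124a-1hg (1.16) and Kalrn (0.73) had higher values with tropicamide without overlap, at adjusted p of 0.396, 0.454 and 0.583.

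Whether tropicamide and saline differed in another way in Plvap-positive than in Plvap-negative cells was tested as an interaction with the pool as a term. Of 10952 genes, 1 passed (0.00913%), Penk, most of whose UMIs lay in few cells, 165 of 170 in 1 Plvap-negative cell of saline pool 3. The interaction of Fkbp5 was −0.29 ± 0.25 (adjusted p = 1): in Plvap-negative cells Fkbp5 was 94.6, 115 and 105 CPM with tropicamide and 32.6, 20.6 and 54.0 CPM with saline, a log2 fold change of 1.39 ± 0.25 (adjusted p = 0.258). Mt1 (1.10 ± 0.23), Zbtb16 (0.89 ± 0.27) and Ednrb (−2.60 ± 0.48) had interactions further from 0 that did not pass by edgeR (adjusted p = 0.848, 1 and 0.848). DESeq2 called 2 genes (0.0183%), Fabp4 and Ednrb, and not Penk. In Plvap-negative cells alone, 0 of 9659 genes passed by edgeR (0%), with 763 at an unadjusted p under 0.05 (7.9%) and 35 called by DESeq2 (0.362%).

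Summing both classes raised the number of UMIs per pool and gave 43 called genes of 11603 (0.371%), 10 higher (0.0862%) and 33 lower (0.284%) with tropicamide. Fkbp5 was among the higher ones, at 167, 174 and 150 CPM against 55.4, 30.9 and 81.5 CPM (log2 fold change 1.40 ± 0.22, adjusted p = 0.0424), as was Smad7 (0.71 ± 0.11, adjusted p = 0.0404). The lower ones included the Müller glia genes Glul, Rlbp1 and Dkk3. Plvap-positive cells had more Fkbp5 than Plvap-negative cells in each of the 6 pools (log2 fold change 1.23), and their share of endothelial cells was 25.2% to 55.2% with tropicamide and 23.3% to 40.0% with saline. The part of this makeup in the differences over both classes was not tested.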

How the data were processed

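Single-cell 3' UMI counts were deposited by the authors as 6 gene-by-barcode matrices of 33696 genes. The deposited counts came from Cell Ranger 8.0.1, per the file headers, and GRCm39 and STAR are named in the submitters' processing notes. For the annotation release, intron counting and cell calling: not given in the sources used here. Barcodes were filtered as described in the report, and doublet scores came from 2 simulated doublets per barcode and 50 neighbours, with an assumed rate of 0.8% per 1000 barcodes. Members were clustered on 1000 variable genes, 20 principal components and 15 neighbours (Leiden resolution 0.6; scikit-learn 1.9.0, igraph 0.11.9, leidenalg 0.10.2).

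Counts were summed per pool and class and tested with edgeR 4.0.16 (TMM, filterByExpr, quasi-likelihood test, Benjamini-Hochberg adjusted p under 0.05 over all genes tested; R 4.3.3), with the pool as a term where classes were compared. Standard errors are the log2 fold change over the square root of F. CPM is the count divided by the summed UMIs of the pool, times 1e6. Shares were compared with a two-sided exact permutation test of logits. DESeq2 1.42.0, size factors, no low-count filter, leaving out each pool, doublet and mitochondrial limits, a replicate block, matched UMIs and stricter Plvap limits were alternatives; at least 5 Plvap UMIs and leaving out clusters were added after seeing the data. The pipeline was tested on simulated data.

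The members and the 24 gene lists were chosen with earlier results of these data known. Named genes were those past the threshold and the 10 of smallest p with tropicamide. At a mean of at least 50 CPM, the 10 highest and 10 lowest class differences were named. So were leading and called members of the lists, the rule genes and muscarinic receptors. Not every leading member has its values given, for example Dusp1, Klf9 and Cdkn1a of the glucocorticoid list. Clone-like names were left out, and others were named after their values were seen. The extraction protocol in the labels describes another tissue and was not used.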

Additional observations from a re-analysis of the deposited data

Results flagged for a closer look

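The change with tropicamide in Penk, which encodes proenkephalin, differed between Plvap-positive and Plvap-negative endothelial cells by the interaction test of edgeR (interaction of 12.85 ± 0.79 on the log2 scale, adjusted p = 0.000231). Penk had 66, 154 and 10 UMIs in the Plvap-positive cells of the tropicamide pools and 0, 0 and 2 in those of the saline pools, and 0, 1 and 0 against 0, 0 and 170 UMIs in Plvap-negative cells. Of the 170 UMIs, 165 lay in 1 cell of saline pool 3. The interaction no longer passed without saline pool 3 (adjusted p = 1), without tropicamide pool 2 (0.0785), with mitochondrial UMIs limited to 10% (0.768) or by DESeq2 (1), and over all alternatives the adjusted p ran from 1.4e-41 to 1.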

How the results depend on the processing

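The number of genes differing between Plvap-positive and Plvap-negative cells ran from 2112 to 4117 over all alternatives, from 2112 to 3103 when 1 pool was left out, and was 2970 with no replicate block. The number of genes changed with tropicamide in Plvap-positive cells was 2 by DESeq2, 105 with no filter on low counts and 0 without marked doublets, with at least 2 or at least 5 Plvap UMIs or in clusters 1 and 2 only, and 0 to 5 when 1 pool was left out. Without clusters 4 and 5 the 1 gene called was Penk, not Pde3a. In Plvap-negative cells it was 35 by DESeq2, 431 with no filter and 0 to 9 when 1 pool was left out. The interaction, the difference between the classes in the change with tropicamide, gave 2 genes by DESeq2, 75 with no filter and 2 without marked doublets. It gave 0 with mitochondrial UMIs limited to 10%, 2 without clusters 4 and 5, and 0 to 5 when 1 pool was left out. With no filter, edgeR's prior degrees of freedom, the weight of the spread shared over genes, rose from 9.56 to infinite in Plvap-positive cells. They rose from 5.45 to 213 in Plvap-negative cells and from 7.79 to infinite for the interaction. A gene's own spread thus had little or no weight in those fits, and their adjusted p are not on a par with the filtered ones. The cause of the moves in number was not tested. Whether pool numbers pair the samples was not settled. Same-numbered pools correlated at 0.0044, −0.029 and −0.089 in Plvap-positive cells and at −0.054, 0.103 and 0.132 in Plvap-negative cells. Differently numbered pools ran from −0.075 to 0.108 and from −0.196 to 0.043. The replicate block gave 5 genes, Pde3a not among them (adjusted p = 0.0525 by edgeR), in Plvap-positive and 31 in Plvap-negative cells. With it the Plvap log2 fold change was 0.35. The Plvap level ran from 0.067 to 0.72 and the logit differences of the shares from 0.348 to 0.997 and from 0.479 to 1.53 when 1 pool was left out. For named genes, 1474 of 1606 values with tropicamide and 1566 of 1629 values between classes counted as unchanged. These were called in both fits, or were uncalled in both and moved by at most 1 SE. A further 108 and 21 values were uncalled in both fits but moved by more than 1 SE. The direction of values uncalled in both fits was not checked. No gene called in either fit reversed direction, nor did the Plvap level or the shares. The smallest sum, 114630 UMIs, limits what saline pool 2 can show.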

Other observations

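Genes outside the comparisons above also separated the Plvap-positive from the Plvap-negative endothelial cells by edgeR. Six3, a homeobox gene of eye and forebrain development, was named after its values were seen: it was 798 ± 224 CPM against 84.5 ± 33.7 CPM (SD, n = 6 pools each; log2 fold change 3.30 ± 0.16, adjusted p = 1.6e-08), higher in 6 of 6 pools. With cells thinned to 2000 UMIs, Six3 was detected in 62.0% of 519 Plvap-positive cells and 7.29% of 672 Plvap-negative cells. In rods chosen without endothelial genes, unthinned, it was detected in 0.812% to 1.3%.

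Clotting genes differed in both directions, with 8 of 17 tested members higher and 3 lower, beside 13.2% and 14.6% of all genes. F2r, the thrombin receptor, was 177 ± 42.8 CPM against 13.7 ± 4.2 CPM (log2 fold change 3.70), and Plat, tissue plasminogen activator, was 77.8 ± 35.9 CPM against 528 ± 105 CPM (−2.59). Among genes of NF-kB and JAK-STAT feedback 8 of 18 were higher and 2 lower; Socs3, a feedback inhibitor of cytokine signalling, was 1239 ± 217 CPM against 684 ± 108 CPM (0.90). In the list of antigen presentation and interferon genes 7 of 28 were higher and 6 lower: B2m and H2-K1, of class I presentation, had log2 fold changes of 0.82 and 0.85, and the interferon-induced genes Ifit3 and Isg15 had −1.23 and −0.52.

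Beside the same 13.2% and 14.6% of all genes, in the remaining lists the counts of higher and lower members were 9 and 3 of 17 for junctions, 7 and 2 of 13 for tip cells, 4 and 7 of 19 for lipid and nutrient uptake, 8 and 3 of 21 for heat shock and endoplasmic reticulum stress, 2 and 8 of 30 for early response, 4 and 3 of 14 for flow, 3 and 6 of 22 for glucocorticoid targets, 0 and 4 of 17 for the circadian clock, 0 and 2 of 16 for amino acid stress and 2 and 1 of 6 for the cell cycle.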
